A study of Homo sapiens with 12 samples.

Results

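ACTG2, which encodes enteric smooth muscle gamma-actin, was examined with 9 other genes of the smooth muscle contractile apparatus in NCCIT cells depleted of chromatin regulators. The 10 genes were ACTG2, ACTA2, ACTA1, ACTC1, TAGLN, CNN1, MYH11, MYL9, TPM1 and TPM2. They were found by their annotated symbol among the 18417 genes of the arrays that had a transcript cluster assigned to a single gene, and each had 1 such cluster. ACTG2 itself was chosen from its fall in the WDR5 and SETD2 depletions, so its levels against the control are given as a description with no test. The other 9 genes were chosen by function, with earlier results of these data known.

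NCCIT is a human embryonal carcinoma line, derived from a germ cell tumour, with pluripotent character. Total RNA was hybridized to 12 Affymetrix Human Gene 1.0 ST arrays, 2 for each of 6 conditions. Cells received a non-targeting siRNA (siNTC), siRNA against WDR5 (siWDR5), EED (siEED), RNF2 (siRNF2) or SETD2 (siSETD2), or the EED and RNF2 siRNAs together (siEED+RNF2). Each of the WDR5, EED and RNF2 siRNAs was a pool of several siRNAs to 1 transcript. By the paper's methods, the dual transfection held both pools and more transfection reagent than a single transfection. The make-up of the SETD2 siRNA was not given in the sources used here. WDR5 is a shared subunit of the MLL/COMPASS H3K4 methyltransferases, EED a core subunit of Polycomb repressive complex PRC2, RNF2 the ubiquitin ligase of PRC1, and SETD2 the enzyme that trimethylates H3K36. The siNTC arrays were marked as re-analysed by the submitters, and all 5 comparisons with siNTC shared those 2 arrays. Nothing in the labels said that the 2 arrays of a condition came from separate cultures, so the p-values measure the spread between arrays, which may be technical.

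Humans have 6 actin genes. ACTA2 and ACTG2 are the smooth muscle forms, ACTA1 and ACTC1 the skeletal and cardiac forms, and ACTB and ACTG1 the cytoplasmic forms that nearly every cell uses. In visceral smooth muscle ACTG2 is a major contractile actin, and its variants cause visceral myopathy. Contraction starts when phosphorylated myosin regulatory light chain (MYL9) lets smooth muscle myosin (MYH11) pull on actin filaments, which tropomyosins (TPM1, TPM2), calponin (CNN1) and transgelin (TAGLN) coat or bundle. Transcription of many of these genes runs through serum response factor (SRF), which binds the CArG box in their promoters and works with the cofactors myocardin (MYOCD), MRTFA and MRTFB. Because actin coding sequences are very alike, array probes for 1 actin may also bind another, which was not tested here because probe sequences were not used.

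The promoter of ACTG2 is shown because it carries the element by which SRF is known to drive contractile genes. The 250 bases before its start, from RefSeq (GRCh38.p14, chr2:73892758-73893007, plus strand), are given with each CArG box in capitals:
ACTG2: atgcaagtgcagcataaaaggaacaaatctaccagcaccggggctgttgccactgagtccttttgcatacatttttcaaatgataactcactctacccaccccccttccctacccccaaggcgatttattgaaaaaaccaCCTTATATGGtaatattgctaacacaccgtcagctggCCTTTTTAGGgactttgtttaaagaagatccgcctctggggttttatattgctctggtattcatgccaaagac
The 2 boxes began 110 and 73 bases before the start. Among the contractile genes, ACTA1 and ACTC1 also had 1 box each, shown with flanking bases on the minus strand at chr1:229434172-229434201 and chr15:34795639-34795668:
ACTA1: tgcccaacacCCAAATATGGctcgagaagg
ACTC1: gcgaaggggaCCAAATAAGGcaaggtggca
These boxes began 97 and 109 bases before their starts, the latter in 1 of the 3 ACTC1 starts in the reference. RefSeq entries were matched for 7 of the 10 genes. Those of ACTA2, CNN1, TPM1 and TPM2 held no exact match to the CArG consensus, given below, in this window. Boxes that differ from the consensus at any base were not searched for. TAGLN, MYH11 and MYL9 were not matched. The box was searched by its consensus (10 bases: CC, then 6 bases that are each A or T, then GG), which reads the same on both strands, and 407 of 35116 such windows (1.16%) held it, 11 of them (0.0313%) 2 or more times. A match is a description of the letters and not of binding, which these arrays did not measure.

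ACTG2 had one of the widest ranges on the arrays. Its condition means spanned 3.39 on the log2 scale, which ranked 11 of 18417 genes, against a median span of 0.376 over all genes. The siNTC arrays read 9.25 and 9.09 (log2 signal). In siEED cells the arrays read 8.64 and 8.70, a difference from the siNTC mean of -0.50. The siEED+RNF2 arrays read 7.71 and 7.94, a difference of -1.35. Much lower signals were found in siRNF2 cells, at 6.33 and 6.49, a difference of -2.76. They were similar in siWDR5 cells, at 6.26 and 6.36, a difference of -2.86. The lowest signals were those of siSETD2 cells, at 5.96 and 5.59, a difference of -3.39, or 9.53% of the siNTC signal. The order of the means was therefore siNTC, siEED, siEED+RNF2, siRNF2, siWDR5 and siSETD2. Only siRNF2 and siWDR5 overlapped among neighbours in that order, and siSETD2 lay 0.53 below siWDR5. In bulk RNA, fewer cells with the transcript and less transcript per cell cannot be told apart.

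**Figure D1:**
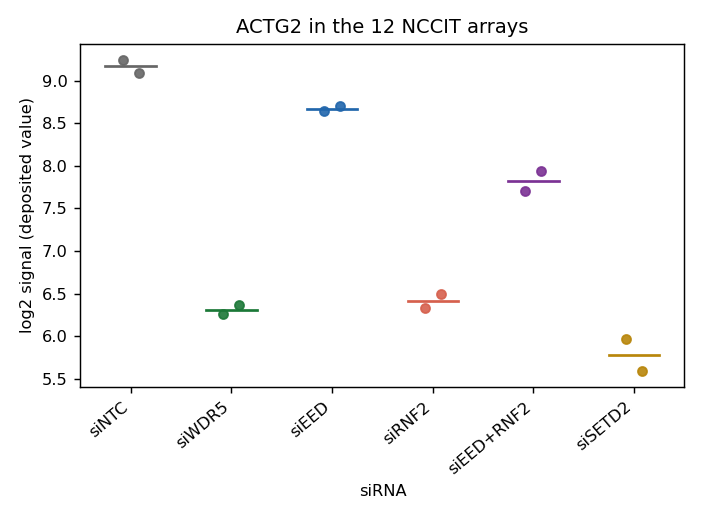
Deposited log2 signal of ACTG2 (vertical axis) in the 2 arrays (points) of each siRNA condition (horizontal axis), with bars at the condition means. The siNTC arrays sit at 9.25 and 9.09, the siEED arrays next, and the siSETD2 arrays lowest at 5.96 and 5.59.

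The 3 Polycomb conditions were compared with each other on arrays that had not been used to choose ACTG2. ACTG2 was lower in siRNF2 than in siEED cells, at a log2 difference of -2.27 ± 0.12 (SE, 2 arrays each, limma, adjusted p = 1.1e-06). Dual depletion gave a level between those of the single depletions. ACTG2 differed by -0.85 ± 0.12 from siEED alone (limma, adjusted p = 0.00044) and by 1.42 ± 0.12 from siRNF2 alone (limma, adjusted p = 1.3e-05), a 2.67-fold higher signal. Arrays of the 3 conditions did not overlap. ACTG2 was the only one of the 10 genes called in any of these 3 comparisons. A call required a limma adjusted p below 0.05 over all genes and a fold change of at least 1.5. Over all genes, 2.91% were called between siEED+RNF2 and siEED, 3.27% between siEED+RNF2 and siRNF2 and 1.26% between siRNF2 and siEED. In the last of these, 86 genes were lower and 146 higher, or 113 and 103 with median centring. At an unadjusted p below 0.05, 1, 3 and 5 of the other 9 genes differed in these comparisons. Between siEED+RNF2 and siEED, 0 were lower and 1 higher, against 12.8% and 14.3% of all genes. Between siEED+RNF2 and siRNF2 the counts were 1 and 2, against 16.0% and 13.6%. Between siRNF2 and siEED they were 4 and 1, against 9.89% and 13.8%.

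The sum of the single-depletion differences of ACTG2 was -3.26, whereas the dual depletion differed from siNTC by -1.35. The dual depletion thus lay 1.91 above the sum on the log2 scale, given as a description because it uses the siNTC arrays. EED transcript read 7.93 and 7.82 in siEED+RNF2 and 8.25 and 8.14 in siEED cells, a difference of -0.32 that was not called, against 9.55 and 9.43 in siNTC. EED also fell in siRNF2 cells, which read 8.85 and 8.80 (-0.66, limma, adjusted p = 5.4e-05), and differed by -0.54 without a call in siWDR5 cells. Its siSETD2 arrays, at 9.11 and 9.02, were below both siNTC arrays as well. The RNF2 transcript was not analysed here, so how deeply RNF2 was depleted in the 2 conditions was not compared. Of the other 9 genes, 1 departed from its sum by a called amount, against 11.3% of all genes: TPM1 lay 0.62 ± 0.11 above its sum (limma, adjusted p = 0.0015). At an adjusted p below 0.05 with no fold threshold, 5 of the 9 genes departed, against 30.5% of all genes. The TPM1 call at the fold threshold was lost without the second siRNF2 array or the first siNTC array, at 0.55 each.

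The other 3 muscle actins stayed near their control signals in every depletion. ACTA2, the vascular smooth muscle actin, read between 4.82 and 5.22 over all 12 arrays, and only 25.2% of genes on the arrays were dimmer. ACTA2 differed from siNTC by -0.22 in siRNF2 cells (95% confidence interval -0.40 to -0.04, limma, adjusted p = 0.047), below the fold needed for a call. In siSETD2 cells its difference was -0.07 (-0.25 to 0.11), in the condition where ACTG2 was lowest. ACTA1, the skeletal actin, read 6.84 and 6.81 in siNTC and 6.51 and 6.41 in siRNF2 cells, a difference of -0.37 (limma, adjusted p = 0.0029) that also stayed below the fold threshold. The siSETD2 arrays for ACTA1, at 6.86 and 6.85, were above both siNTC arrays. ACTC1, the cardiac actin, read between 4.94 and 5.26 throughout, with 27.8% of genes dimmer, and no comparison with siNTC passed an adjusted p of 0.05.

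MYH11, the smooth muscle myosin heavy chain, varied least, with condition means that spanned 0.07 and arrays between 4.44 and 4.71. Only 14.8% of genes were dimmer than MYH11 and 13.9% were dimmer than TAGLN, so a fall from a low control signal could be missed for these genes. TAGLN, which encodes transgelin, an actin-bundling protein, read 4.68 and 4.63 in siNTC and 4.11 and 4.29 in siSETD2 cells. Its difference of -0.45 (95% confidence interval -0.70 to -0.21, limma, adjusted p = 0.0091) did not reach the fold threshold. CNN1, which encodes calponin, an inhibitor of the myosin ATPase, differed in sign between depletions. It read 6.10 and 6.29 in siNTC, 6.62 and 6.51 in siRNF2 cells (difference 0.37, limma, adjusted p = 0.0041) and 5.80 and 5.92 in siWDR5 cells (difference -0.33, limma, adjusted p = 0.0097). Neither difference was called. MYL9, the regulatory light chain, read between 6.43 and 6.96, with its lowest arrays, 6.62 and 6.43, in siRNF2 cells (difference -0.33, limma, adjusted p = 0.014).

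The tropomyosins were the brightest members, with 77.3% and 76.5% of genes dimmer than TPM1 and TPM2. Tropomyosin runs along the actin filament and gates access of myosin, and TPM1 and TPM2 are also transcribed outside muscle. TPM1 read 9.85 and 9.72 in siNTC. It read 8.65 and 8.51 in siSETD2 cells, where it fell by 1.21 ± 0.08 on the log2 scale (SE, limma, adjusted p = 9.9e-07), to 43.3% of control. In siRNF2 cells it read 9.20 and 9.05 and fell by 0.66 ± 0.08 (limma, adjusted p = 4.1e-05). Every array of every depletion lay below both siNTC arrays, but siWDR5 (-0.36), siEED (-0.50) and siEED+RNF2 (-0.54) did not reach the fold threshold. The siEED+RNF2 difference was called without the second siNTC array (-0.61) and after arrays were centred on their medians (-0.62).

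TPM2 fell in siSETD2 cells, from 9.38 and 9.38 to 8.67 and 8.54, a difference of -0.77 ± 0.07 (SE, limma, adjusted p = 6.1e-06). In siWDR5 cells both arrays read 9.05, a difference of -0.33 (limma, adjusted p = 0.0024), and in siRNF2 cells they read 9.14 and 9.05, a difference of -0.29 (limma, adjusted p = 0.0041). In siEED cells both read 9.41, and the siEED+RNF2 arrays, 9.61 and 9.52, were the highest of all, at a difference of 0.19 (limma, adjusted p = 0.037). None of these 4 differences was called.

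**Figure D2:**
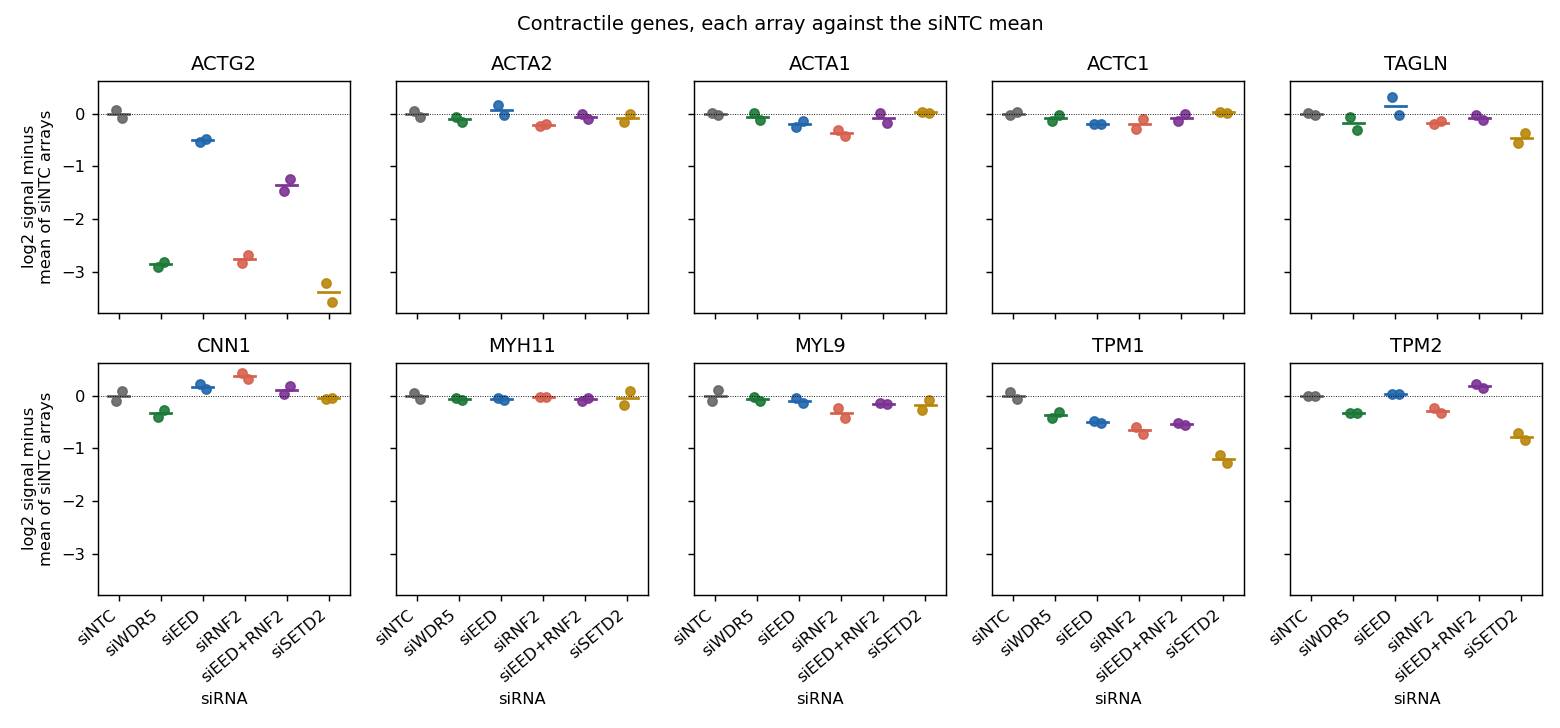
Log2 signal of each array minus the mean of the siNTC arrays (vertical axis, shared by all panels) for the 10 contractile genes in the 6 siRNA conditions (horizontal axis), with points for arrays and bars for condition means. ACTG2 reached -3.39 in siSETD2 cells, TPM1 reached -1.21 and TPM2 -0.77, and the remaining panels stay close to 0.

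Counted over the 9 genes other than ACTG2, no gene was called lower in siWDR5, siEED or siEED+RNF2 cells, against 3.22%, 2.63% and 6.02% of all genes. At an unadjusted p below 0.05, limma gave 3, 3 and 1 of the 9 lower, against 24.2%, 24.5% and 25.4% of all genes. The call in siRNF2 cells was TPM1, 1 of 9 genes, where 3.81% of all genes were called lower. The calls in siSETD2 cells were TPM1 and TPM2, 2 of 9 genes, where 3.18% were called lower. No gene was called higher in any depletion, against 2.64% of all genes in siSETD2, 2.8% in siWDR5, 3.74% in siEED, 5.49% in siEED+RNF2 and 6.37% in siRNF2 cells. The numbers lower were 6 in siRNF2 and 3 in siSETD2 cells at an unadjusted p below 0.05, against 27.1% and 21.1% of all genes. The numbers higher at that threshold were 0 in siWDR5, siEED and siSETD2 cells, against 19.1%, 20.1% and 20.4% of all genes. They were 1 each in siRNF2 and siEED+RNF2 cells, against 23.6% and 23.8%. The called shares depend on scaling. Median centring took all genes in siRNF2 cells from 701 lower and 1174 higher to 1253 and 775. In siEED cells it took them from 485 and 688 to 730 and 502, and in siEED+RNF2 cells from 1109 and 1011 to 1414 and 770. The median difference of the 9 genes was -0.22 in siRNF2 and -0.11 in siWDR5 cells, -0.06 in siEED cells, and -0.07 in both siEED+RNF2 and siSETD2 cells, and that of all genes lay between -0.04 and -0.01.

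TPM1 was lower in siSETD2 cells than in 3 of the other 4 depletions by a called amount, and TPM2 than in 2 of them. Against siWDR5, TPM1 was lower by a called amount (-0.84, limma, adjusted p = 1.4e-05), 1 of the 9 genes, where 5.84% of all genes were called, and TPM2 differed by -0.45 without a call. Against siEED, TPM1 (-0.71), TPM2 (-0.81) and TAGLN (-0.61) were lower, 3 of 9 genes, where 6.28% were called. The TAGLN call was lost without the first siEED array (-0.44) or without the first siSETD2 array (-0.51), and also with median centring (-0.53). Against siEED+RNF2, TPM1 (-0.67) and TPM2 (-0.96) were lower, 2 of 9, where 10.4% were called. Against siRNF2 none of the 9 was called, where 8.67% of all genes were. TPM1 differed there by -0.55 and TPM2 by -0.49. At an unadjusted p below 0.05 limma gave 4 of the 9 genes lower and 2 higher, against 22.7% and 23.0% of all genes. Median centring again moved the totals of all genes, against siRNF2 from 1012 lower and 585 higher to 685 and 1062, against siEED from 709 and 448 to 542 and 664, and against siEED+RNF2 from 900 and 1020 to 689 and 1274. The call of TPM1 against siRNF2 was gained without the second siRNF2 array or the first siSETD2 array, at -0.62 each.

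Called genes of wider smooth muscle differentiation differed between depletions, with 8 called in at least 1 depletion, a share not computed for all genes. Of the 22 listed genes 20 were measured, and none was called in siWDR5 or siEED cells. Of all genes, 3.22% were called lower and 2.8% higher in siWDR5, and 2.63% and 3.74% in siEED cells. At an unadjusted p below 0.05 limma gave 4 lower and 2 higher in siWDR5 cells, against 24.2% and 19.1% of all genes. It gave 3 and 5 in siEED (24.5% and 20.1%) and 6 and 5 in siRNF2 cells (27.1% and 23.6%). The counts were 6 and 4 in siEED+RNF2 (25.4% and 23.8%) and 3 and 3 in siSETD2 cells (21.1% and 20.4%). In siRNF2 cells 1 was called lower and 2 higher, in siEED+RNF2 cells 2 lower and 1 higher, and in siSETD2 cells 1 lower and 1 higher. These counts of 20 genes stand beside shares of all genes of 3.81% lower and 6.37% higher in siRNF2, 6.02% and 5.49% in siEED+RNF2, and 3.18% and 2.64% in siSETD2 cells, and are near them. Their median difference lay between -0.07 and 0.02. NEXN, which encodes the actin-binding nexilin, fell in siEED+RNF2 cells (-1.17, limma, adjusted p = 1.5e-07), with differences of -0.35 and -0.27 in siEED and siRNF2 cells. SYNPO2, an actin-bundling protein of muscle, fell in siSETD2 cells (-0.99, limma, adjusted p = 4.5e-06), whereas PRKG1, the cGMP-dependent kinase that relaxes smooth muscle, rose there (1.05, limma, adjusted p = 1.2e-06). Of the genes called and named after their values were seen, CALD1 (caldesmon, -0.62) fell and PPP1R14A (an inhibitor of myosin phosphatase, 0.75) rose in siEED+RNF2 cells, and VCL (vinculin, -0.92) fell and DES (desmin, 0.63) rose in siRNF2 cells. The DES call was lost with arrays centred on their medians (0.51) and without the first siRNF2 array (0.52) or the first siNTC array (0.55).

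The cytoplasmic actins were bright and were not called in any depletion against siNTC. ACTB read between 13.42 and 13.84 over the 12 arrays. ACTG1, which like ACTG2 is a gamma-actin, read 13.14 and 13.16 in siNTC and 12.66 and 12.53 in siRNF2 cells, a difference of -0.56 (limma, adjusted p = 4.1e-05), and 13.26 and 13.25 in siSETD2 cells, where ACTG2 was lowest. Gene medians of the siRNF2 arrays lay 0.13 above those of siNTC, and median centring took the ACTG1 difference to -0.68, which was called, as was the -0.62 without the first siRNF2 array. Among 13 measured cytoplasmic actins and nonmuscle isoforms of 14 listed, the single called gene was TAGLN3, a neuronal transgelin, which rose in siWDR5 (0.82, limma, adjusted p = 0.00021) and siSETD2 cells (0.74, limma, adjusted p = 0.00045). The latter call was lost without the first siNTC array (0.57). Of all genes, 2.63% to 6.02% were called lower and 2.64% to 6.37% higher in the depletions. For the 13 genes limma gave 1 lower and 5 higher in siWDR5 cells at an unadjusted p below 0.05. The counts were 4 and 3 in siEED, 5 and 2 in siRNF2, 2 and 4 in siEED+RNF2, and 4 and 2 in siSETD2 cells. Shares of all genes at that threshold were 21.1% to 27.1% lower and 19.1% to 23.8% higher.

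Of the factors that act through the CArG box, only MYOCD was called against siNTC, in siRNF2 cells. SRF read 10.11 and 10.13 in siNTC and lay below both of these arrays in all 10 arrays of the depletions, with differences from -0.30 in siEED to -0.49 in siSETD2 cells. All 5 differences had a limma adjusted p of 0.0052 or less and none reached the fold threshold, although median centring brought siRNF2 to -0.59, which was called. MRTFB, a cofactor of SRF, lay between -0.36 in siEED+RNF2 and -0.06 in siSETD2 cells, with no call. MRTFA was not used here. MYOCD, the cofactor restricted to cardiac and smooth muscle, rose in siRNF2 cells. It read 5.13 and 5.09 in siNTC and 6.37 and 6.48 in siRNF2 cells, a rise of 1.32 ± 0.12 (SE, limma, adjusted p = 4.1e-06). The same siRNF2 arrays read 6.33 and 6.49 for ACTG2, against 9.25 and 9.09 in siNTC. In siEED (5.48 and 5.90) and siEED+RNF2 cells (5.66 and 5.69) MYOCD lay above both siNTC arrays without a call, at 0.58 and 0.56, and in siWDR5 and siSETD2 cells it differed by 0.02 and -0.08. The siEED difference was called without the first siEED array (0.79) or the first siNTC array (0.60). Between the Polycomb depletions, MYOCD was higher in siRNF2 than in siEED cells (0.74, limma, adjusted p = 0.0023) and lower in siEED+RNF2 than in siRNF2 cells (-0.76, limma, adjusted p = 0.00076), opposite in sign to ACTG2 in both.

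EGR1, CCN2, FOS and VCL were the only genes called lower in the list of SRF, its cofactors and immediate targets. Of its 15 measured genes of 16 listed, 2 were called lower in siWDR5, siEED, siEED+RNF2 and siSETD2 cells and 4 in siRNF2 cells, where MYOCD alone was called higher. Of all genes, 2.63% to 6.02% were called lower and 2.64% to 6.37% higher in these depletions. At an unadjusted p below 0.05 limma gave 6 lower and 0 higher in siWDR5, 9 and 3 in siEED, and 9 and 4 in siRNF2 cells. It gave 8 and 3 in siEED+RNF2 and 6 and 1 in siSETD2 cells. At that threshold, 21.1% to 27.1% of all genes were lower and 19.1% to 23.8% higher in these depletions. CCN2, a matricellular protein, read 8.55 and 8.63 in siNTC. It fell by 0.66 in siWDR5 (limma, adjusted p = 0.00033), by 0.93 in siRNF2 (limma, adjusted p = 1.5e-05) and by 0.76 in siSETD2 cells (limma, adjusted p = 0.00013). These were also the 3 depletions with the lowest ACTG2 means, and CCN2 was not called in siEED (-0.41) or siEED+RNF2 cells (-0.54), although median centring brought the latter to -0.62, which was called. EGR1, an immediate early transcription factor, fell in all 5 depletions, by 2.13 in siRNF2, 1.71 in siEED+RNF2, 1.42 in siEED, 0.78 in siWDR5 and 0.72 in siSETD2 cells. Its lowest means were thus in the Polycomb depletions, unlike those of ACTG2. FOS fell in the 3 Polycomb depletions (-0.78 to -0.93) and was not called in siWDR5 (0.20) or siSETD2 cells (0.12).

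**Figure D3:**
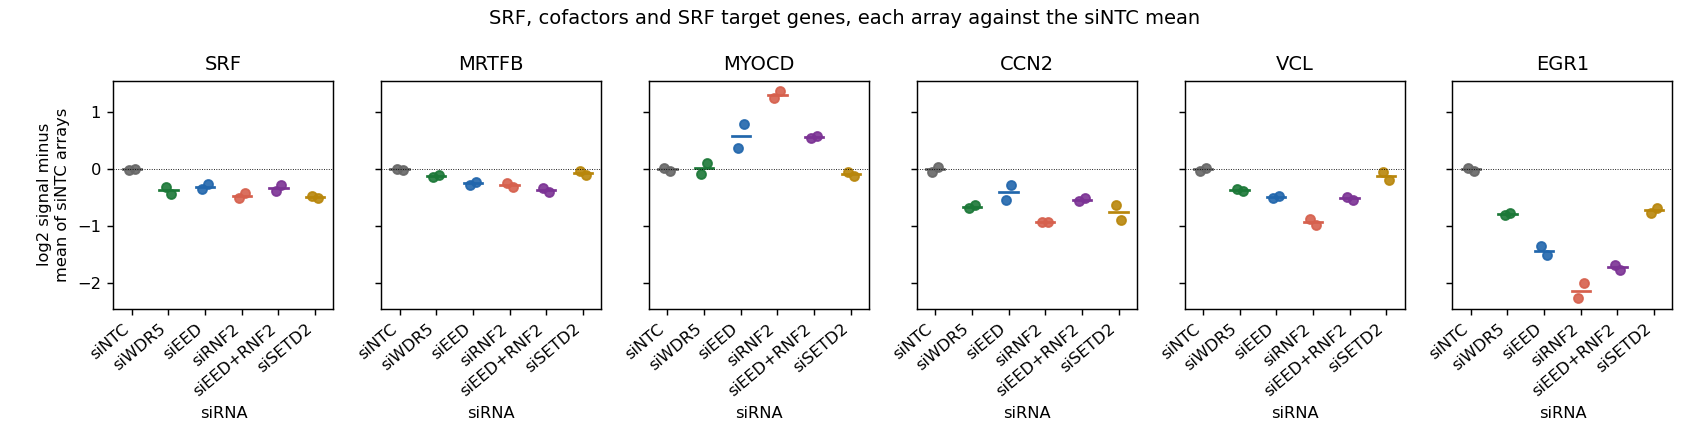
Log2 signal of each array minus the siNTC mean (vertical axis, shared) for SRF, its cofactors MRTFB and MYOCD, and the target genes CCN2, VCL and EGR1 in the 6 siRNA conditions (horizontal axis), with points for arrays and bars for means. MYOCD rose to 1.32 in siRNF2 cells, where EGR1 lay at -2.13, and SRF stayed between -0.49 and -0.30 in the depletions.

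Regulators upstream of the contractile program were listed separately, 13 measured of 15. TGFBR2, the TGF-beta type 2 receptor, fell in siEED (-1.05), siRNF2 (-1.04), siEED+RNF2 (-1.08) and siSETD2 cells (-0.85) and differed by -0.08 in siWDR5 cells, where ACTG2 was among the lowest. HAND1, a bHLH factor of heart and extraembryonic mesoderm, fell most in siSETD2 (-1.94, limma, adjusted p = 1.3e-07) and siWDR5 cells (-1.59, limma, adjusted p = 6.9e-07), and also in siEED cells (-0.81). HAND1 was below both siNTC arrays without a call in siRNF2 and siEED+RNF2 cells, at means of 6.74 and 6.76 against 7.28. SMAD3, which carries the TGF-beta signal, fell in siSETD2 cells (-0.85). KLF4, a repressor of smooth muscle genes, rose in siEED+RNF2 (0.71), siSETD2 (0.62) and siWDR5 cells (0.59), and the latter 2 calls were lost without the second siNTC array (0.51 and 0.49) and without the first array of their own condition (0.57 and 0.55). KLF4 was above both siNTC arrays without a call in siEED and siRNF2 cells too, at means of 8.81 and 8.79 against 8.27. In all, 1 of the 13 was called lower and 1 higher in siWDR5 and in siEED+RNF2 cells, 2 lower in siEED, 1 lower in siRNF2, and 3 lower and 1 higher in siSETD2 cells. Over all genes the called shares were 2.63% to 6.02% lower and 2.64% to 6.37% higher.

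Markers of other cell types were examined beside these values. Of 9 measured pluripotency genes of 12 listed, 8 were in the brightest tercile of all genes and none in the dimmest. POU5F1, NANOG and TDGF1 were not used here. Of the 10 contractile genes 4 were in the dimmest tercile and 2 in the brightest, of 16 striated muscle genes 11 were in the dimmest, and of 12 fibroblast and pericyte genes 8 were. Pluripotency genes were called lower in siWDR5 (1), siRNF2 (1) and siEED+RNF2 cells (3) and higher in siSETD2 cells (2), the condition with the lowest ACTG2, with no call in siEED cells. Called shares of all genes were 3.22%, 3.81% and 6.02% lower and 2.64% higher in those 4 conditions. At an unadjusted p below 0.05 limma gave 7 of the 9 lower in siEED, 6 in siRNF2, 5 in siEED+RNF2, 4 in siWDR5 and 0 in siSETD2 cells, where 24.5%, 27.1%, 25.4%, 24.2% and 21.1% of all genes were lower. The numbers higher were 2 in siWDR5 and 3 in siSETD2 cells, against 19.1% and 20.4% of all genes. They were 0 in siEED, siRNF2 and siEED+RNF2 cells, against 20.1%, 23.6% and 23.8%. L1TD1, an RNA-binding protein of pluripotent cells, differed by -1.08 in siEED+RNF2 and 0.67 in siSETD2 cells. DPPA4, named after its values were seen, was the other call in siSETD2 cells, at 12.11 and 12.14 against 11.54 and 11.52 in siNTC. DNMT3B and LIN28B fell in siEED+RNF2 cells (-0.62, or -0.57 and no call with quantile normalization, and -0.90), DNMT3B in siRNF2 cells (-0.71) and LIN28A in siWDR5 cells (-0.68). THY1, a surface protein of fibroblasts and of pluripotent cells, fell in siEED (-1.56), siRNF2 (-1.67) and siEED+RNF2 cells (-1.5), and RGS5, a pericyte gene, rose in siRNF2 cells (0.85), and no other gene of the 12 was called. Among striated muscle genes, NEB fell in siEED+RNF2 (-0.86) and siSETD2 cells (-0.75) and TNNT1 rose in siEED (0.66) and siEED+RNF2 cells (0.72), with no other call among the 16. The TNNT1 call in siEED cells was lost without the first siEED array (0.55) or with median centring (0.58), and that in siEED+RNF2 cells without the second array of that condition (0.57). Called shares of all genes over the depletions were 2.63% to 6.02% lower and 2.64% to 6.37% higher. Per depletion, limma gave 2 to 3 of the 16 striated muscle genes lower and 2 to 3 higher at an unadjusted p below 0.05. It gave 1 to 5 of the 12 fibroblast and pericyte genes lower and 0 to 1 higher. All-gene shares at that threshold were 21.1% to 27.1% lower and 19.1% to 23.8% higher. The log2 summed signal of the fibroblast and pericyte genes lay between 12.02 and 12.49 over the conditions and that of the pluripotency genes between 14.46 and 14.97. The part of these markers in the ACTG2 levels was not tested. Transcripts of WDR5 (-1.21), EED (-1.29) and SETD2 (-1.75) fell in the cells that received the matching single siRNA (limma, adjusted p of 6.4e-07 or less).

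Among genes whose condition means spanned at least 1, those most like ACTG2 in pattern came from outside the contractile apparatus. Of the other contractile genes only TPM1 (span 1.21) met that limit, so the rest, such as TPM2 (0.96), could not be among them. Likeness was the Pearson correlation of log2 signals over the 12 arrays, a description with no test, among 1273 named genes whose condition means spanned at least 1. The arrays of a condition share their treatment and the siNTC arrays weigh on every pattern. The 6 closest were MYB (r = 0.962), a transcription factor of progenitor cells, PDE3A (0.935), a cyclic nucleotide phosphodiesterase, FRZB (0.921), a secreted Wnt antagonist, TNMD (0.9), the tendon protein tenomodulin, LRRTM3 (0.889), a synaptic membrane protein, and AIG1 (0.877). MYB read 8.96 and 8.87 in siNTC and 7.76 and 7.63 in siSETD2 cells. Its mean spanned 1.22, and those of the 6 genes spanned between 1.01 and 1.75, less than the 3.39 of ACTG2. Without the span limit, the same measure was 0.811 for TPM2, 0.746 for TAGLN and 0.724 for TPM1. It was 0.589 for ACTA2, 0.416 for MYL9, 0.199 for CNN1, 0.047 for ACTA1, 0.03 for MYH11 and -0.078 for ACTC1. In the SRF list it was 0.862 for CCN2 and 0.839 for SRF. It was 0.242 for EGR1, 0.24 for VCL, -0.016 for MRTFB, -0.028 for MYOCD and -0.301 for FOS.

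**Figure D4:**
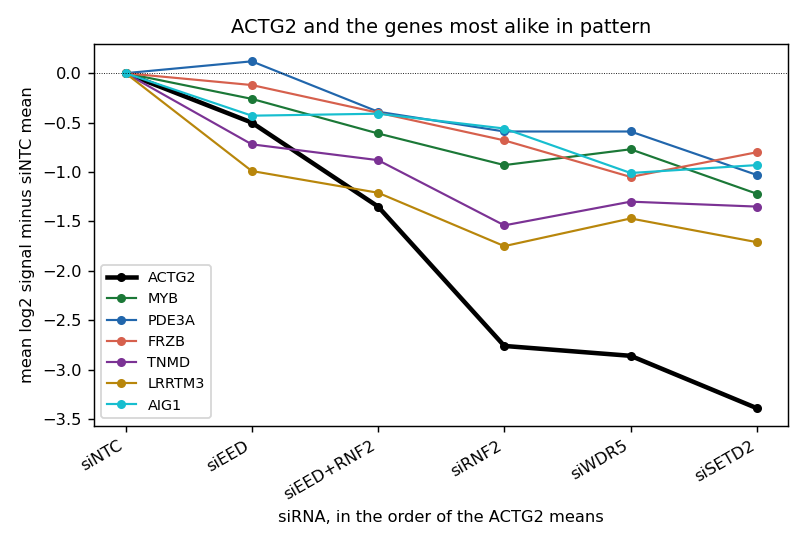
Mean log2 signal of each condition minus the siNTC mean (vertical axis) for ACTG2 (thick line) and the 6 genes most alike in pattern, with conditions (horizontal axis) in the order of the ACTG2 means. The 6 were drawn from genes whose condition means spanned at least 1. All 7 lines end below 0 in siSETD2 cells, that of ACTG2 lowest at -3.39.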

How the data were processed

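Total RNA of 12 NCCIT samples (2 per siRNA condition) was measured on Affymetrix Human Gene 1.0 ST arrays. The authors deposited log2 values for 33297 transcript clusters. GCRMA and Partek are named in the submitters' processing notes, without version or setting (not given in the sources used here). Groups came from the sample titles. Of the clusters, 19460 were annotated with 1 gene, 1754 with several and 12083 with none, and where a gene had several clusters (769 genes) the brightest was taken, which left 18417 genes. A single limma fit (version 3.58.1, R 4.3.3; 6 conditions, 6 residual degrees of freedom) gave each difference its SE and confidence interval, with Benjamini-Hochberg adjustment over all genes of a comparison. The thresholds for a call were an adjusted p of 0.05 and a 1.5-fold change. The fit was tested on simulated data.

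The contractile genes, the gene lists and the tests were chosen with earlier results of these data known. Named genes were the 10 contractile genes, ACTB, ACTG1, SRF and its cofactors, the measured siRNA targets, up to 4 called genes per list with the widest difference, and the 6 genes most correlated with ACTG2 among those with condition means spanning at least 1 (names of small RNAs and open reading frames left out). Comparisons of siSETD2 with the other depletions, and of the dual depletion with the sum of the single ones, were added after the levels were seen.

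Replicate arrays correlated at 0.996 to 0.997, and arrays of different conditions at 0.9952 or less. Array medians over the clusters lay between 6.286 and 6.359. The number of arrays limits the precision, and no scan date or batch was used. Alternatives were quantile normalization, centring on array medians, dropping the 30% of genes with the lowest signal, averaging all clusters of a gene, no fold threshold, a replicate block, a fit of the compared groups alone, a variance trend with robust moderation, the mean of the other depletions as reference, and leaving out each array. A further condition of the study and the RNF2 transcript were not analysed here.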

Additional observations from a re-analysis of the deposited data

Results flagged for a closer look

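The ACTG2 difference with added EED siRNA was negative without RNF2 siRNA and positive with it. It was -0.50 (siEED minus siNTC, both arrays lower) and 1.42 (siEED+RNF2 minus siRNF2, both arrays higher). The difference between these 2 values was not tested because ACTG2 was chosen on the siNTC arrays, which the first value uses. With the mean of the other depletions in place of siNTC, the siEED difference was 2.51. How deeply RNF2 was depleted in siRNF2 and siEED+RNF2 cells was not compared. By the paper's methods the dual transfection also held more siRNA and more transfection reagent.

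For 5 other contractile genes the dual depletion departed from the sum of the single depletions by a limma test of that departure at an adjusted p below 0.05 with no fold threshold, which 30.5% of all genes also passed. The dual depletion lay above the sum for TPM1 (0.62, adjusted p = 0.0015), ACTA1 (0.49, adjusted p = 0.0065), TPM2 (0.44, adjusted p = 0.0039) and ACTC1 (0.32, adjusted p = 0.048), and below it for CNN1 (-0.42, adjusted p = 0.019). Only TPM1 also passed the fold threshold, against 11.3% of all genes, of which 1369 lay below and 717 above their sum. With median centring these became 876 and 1381, and ACTA1 (0.62) passed it too. Over all genes the median departure was 0.04.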

How the results depend on the processing

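ACTG2 kept its direction and its call between siEED, siEED+RNF2 and siRNF2 in every alternative run. Same-numbered arrays did not deviate together (correlation of deviations -0.11 to 0.16, over 0.1 in 1 of 15 condition pairs), so the numbers were not taken as a pairing. With a replicate block its differences there were -0.85, 1.42 and -2.27 (limma, adjusted p = 0.00097, 3.8e-05 and 4.2e-06), and the block changed no other call. Quantile normalization gave 2 genes departing from the sum of the single depletions, as did centring on array medians, which also gave 1 contractile gene lower in siEED+RNF2 cells and -2.89 for ACTG2 in siRNF2 cells. HAND1 gained a call with siRNF2 and siEED+RNF2 under quantile normalization (-0.66 and -0.61) and median centring (-0.67 and -0.6), VCL with siEED+RNF2 (-0.59) and DNMT3B with siEED (-0.64) under centring, and KLF4 with siWDR5 lost its call under quantile normalization (0.58).

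Without the fold threshold, contractile genes other than ACTG2 called lower were 3, 1, 5 and 1 with siWDR5, siEED, siRNF2 and siEED+RNF2. The last 2 had 1 higher call each. Of the 10 genes, 3 differed between siEED+RNF2 and siRNF2 (all genes: 2088 lower, 1110 higher) and 3 between siRNF2 and siEED (751 and 1217). The counts for siSETD2 against siWDR5, siEED and siRNF2 were 3 (2627 and 3200), 5 (2819 and 3024) and 5 (3580 and 3414). Departures numbered 5. Lower calls per depletion were then 3 to 6 among smooth muscle differentiation genes and 6 to 8 in the SRF list. Cytoplasmic isoforms and pluripotency genes had 0 to 5 each. Over all genes, counts in 1 direction against siNTC were 2802 to 4075 (485 to 1174 with the threshold).

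With the mean of the other depletions in place of siNTC, ACTG2 differed by -0.86 with siWDR5, 2.51 with siEED, -0.52 with siRNF2, 1.78 with siEED+RNF2 and -1.53 with siSETD2, so the siEED and siEED+RNF2 signs turned. TPM1 turned to 0.36 with siWDR5, 0.25 with siEED, 0.03 with siRNF2 and 0.25 with siEED+RNF2, which left 0 contractile genes lower with siRNF2, and 1 was higher with siEED+RNF2. Signs also turned with siWDR5 for NEXN (0.17), EGR1 (0.72), CCN2 (0.0), TGFBR2 (0.93), KLF4 (-0.01) and THY1 (0.75). With siEED they turned for CCN2 (0.37) and HAND1 (0.55), with siRNF2 for PRKG1 (-0.22), HAND1 (0.9) and NEB (0.19), with siEED+RNF2 for TAGLN3 (-0.44), HAND1 (1.24) and SMAD3 (0.19), and with siSETD2 for EGR1 (0.79). This reference is itself made of depleted cells.

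Over the fits that left out 1 array, contractile genes lower in siEED+RNF2 cells numbered 0 to 1 (1 without the second siNTC array). Those called between siSETD2 and siRNF2 numbered 0 to 1, as did departures from the sum, where the departure was 0 without the second siRNF2 or first siNTC array. Among the other genes, differences with siEED gained a call for KLF4 (0.59 and 0.65 without the first siEED or first siNTC array), PRKG1 (0.63 and 0.6 without the second siEED or second siNTC array) and DNMT3B (-0.62 without the second siEED array). With siRNF2 a call was gained for PPP1R14A (0.59 and 0.61 without the first siRNF2 or second siNTC array), HAND1 (-0.59 without the second siRNF2 array) and KLF4 (0.63 without the first siNTC array). With siEED+RNF2 it was gained for HAND1 (-0.61) and DES (0.6) without the first array of that condition and for DES (0.64) without the second siNTC array, and with siWDR5 for LIN28B (-0.59 without the first siWDR5 or first siNTC array). Uncalled differences changed sign in 114 of 5333 comparisons over all alternatives. The causes of these changes were not tested. With 2 arrays per condition and dim signals for TAGLN, MYH11, ACTA2 and ACTC1, small falls in these genes could be missed.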
